A study of Mus musculus with 18 samples.

Results

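Hepatocytes, the secretory and metabolic cells that make up most of the liver, were compared between mice whose bile duct had been ligated (BDL) and mice that had a sham operation (Sham). Bile duct ligation is a surgical model of blocked bile flow. The 2 groups were chosen by the cell type and treatment labels, as the hepatocyte (MPH) libraries of BDL mice and those of Sham mice, 3 libraries each, among 18 libraries of the study. The other 12 libraries, 3 per group, were biliary epithelial cells (BECs) or Kupffer-like cells, from BDL or Sham livers, and were used only where a response is compared between cell types. The members are the genes with at least 1 FPKM (a read count scaled by gene length and by library size) in at least 3 of the 6 hepatocyte libraries, which were 12323 of 54532 genes in the table. Total RNA was taken from the isolated primary cells and polyadenylated RNA was sequenced. The labels give no strain, age, time after ligation or housing for either group, and leave unsaid if a library stands for 1 mouse of its own. The p-values then reflect only how these libraries vary, which may be technical.

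Hepatocytes take up bile acids from the blood, make them from cholesterol, and export them into canaliculi that drain to the bile ducts. The nuclear receptor FXR senses bile acids and, through the repressor SHP, restrains their synthesis. The same cells also secrete most plasma proteins. Interleukin 6 and related cytokines act on them through STAT3, NF-kappa-B and C/EBP factors to raise the acute phase proteins, and pulses of growth hormone, read through STAT5, maintain the difference between male and female liver.

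Levels were compared as log2(FPKM + 1), so a log2 fold change is BDL minus Sham on that scale and understates changes of genes near 1 FPKM. A gene was called, and is said to have risen or fallen, where limma, a linear model fitted across all 12323 genes, gave a Benjamini-Hochberg adjusted p under 0.05. At an unadjusted p under 0.05 in limma, 1045 of the 12323 genes were higher in BDL hepatocytes and 1746 lower. Counts of list members at that level stand beside these. Groups are said not to overlap where all 3 BDL libraries lay above, or all 3 below, the 3 Sham libraries. Values per library follow the order 1, 2, 3 of each group, and ± after a log2 fold change is its standard error in limma.

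The 3 hepatocyte markers stood high in both groups. Alb, which encodes serum albumin, had 32219, 39277 and 75553 FPKM in the BDL libraries, against 24262, 45229.5 and 80206 FPKM in the Sham libraries. Apoa1, the main protein of high density lipoprotein, had 6394, 8448 and 14384 FPKM in the BDL libraries, against 5337, 4596 and 9029 FPKM in the Sham libraries. Hnf4a, a transcription factor of hepatocyte identity, had 140.1, 192 and 240.3 FPKM in the BDL libraries, against 141, 124 and 241 FPKM in the Sham libraries. The groups overlapped for all 3 markers. Of 16 hepatocyte markers, none was called with limma (2 higher and 4 lower at an unadjusted p under 0.05), their median log2 fold change was -0.16 (0.31 without Sham 3, 0.03 without BDL 1 and 0.02 with libraries scaled to a common sum), and their summed FPKM were 68580.0, 81700.0 and 126400.0 in BDL libraries, against 56970.0, 75830.0 and 127300.0 in Sham libraries. The deposited values gave back 16730372 to 17948248 reads in genes for each hepatocyte library.

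Markers of other liver cells were present in these preparations, and the sexes were mixed. The 12 Kupffer cell markers summed to 4926.0, 6632.0 and 2241.0 FPKM in BDL libraries, against 10040.0, 4489.0 and 2422.0 FPKM in Sham libraries, with none called by limma (1 higher at an unadjusted p under 0.05). Their mean log2(FPKM + 1) was 6.66 to 9.03 in hepatocyte libraries and 7.32 to 9.89 in Kupffer-like libraries. In biliary libraries it was 2.70 to 4.11. Hepatocyte Sham 1, at 9.03, lay above every Sham library of Kupffer-like cells. The 12 endothelial markers summed to 258.4 to 769.7 FPKM in BDL libraries, against 253.7 to 1177.0 FPKM in Sham libraries, and 13 stellate and fibroblast markers to 316.5 to 481.2 FPKM in BDL libraries, against 122.9 to 366.3 FPKM in Sham libraries, with none called by limma in either list (1 endothelial marker lower and 4 stellate markers higher at an unadjusted p under 0.05). Of 13 biliary markers, 7 were tested and Krt7 alone was called, and the list summed to 74.4 to 79.1 FPKM in BDL libraries, against 27.3 to 54.9 FPKM in Sham libraries. No list of markers was at 0 throughout. In bulk libraries fewer cells of a type and less RNA per cell cannot be told apart. By the Y-linked gene Ddx3y and by Xist, BDL 3 and Sham 2 were female and the other 4 hepatocyte libraries male. BDL 3 stood apart, with correlations of 0.835 to 0.856 to the Sham libraries across genes, against 0.871 to 0.937 for BDL 1 and BDL 2. Every library of BDL hepatocytes carries a lower number in its title than every Sham one, so anything that this number marks cannot be told apart from ligation.

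Ligation was followed by a change in 194 of 12323 genes (1.57%), of which 88 rose (0.714%) and 106 fell (0.86%). The BDL libraries all lay above the Sham libraries for 1454 genes (11.8%) and all below them for 2268 (18.4%), and the median log2 fold change over all genes was -0.06. The groups overlapped for none of the 194 called genes. For 62 of them the filter fixed this, as they reached 1 FPKM in all libraries of 1 group and none of the other. With limma on the 4 male libraries alone, 2 genes rose and 1 fell. Only 124 of the 194 called genes could be tested there. With sex as a term in the model, 76 genes rose and 71 fell, and 116 of these were among the 194. The counts fell to 3 to 28 rises and 4 to 49 falls when 1 library was left out.

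**Figure D1:**
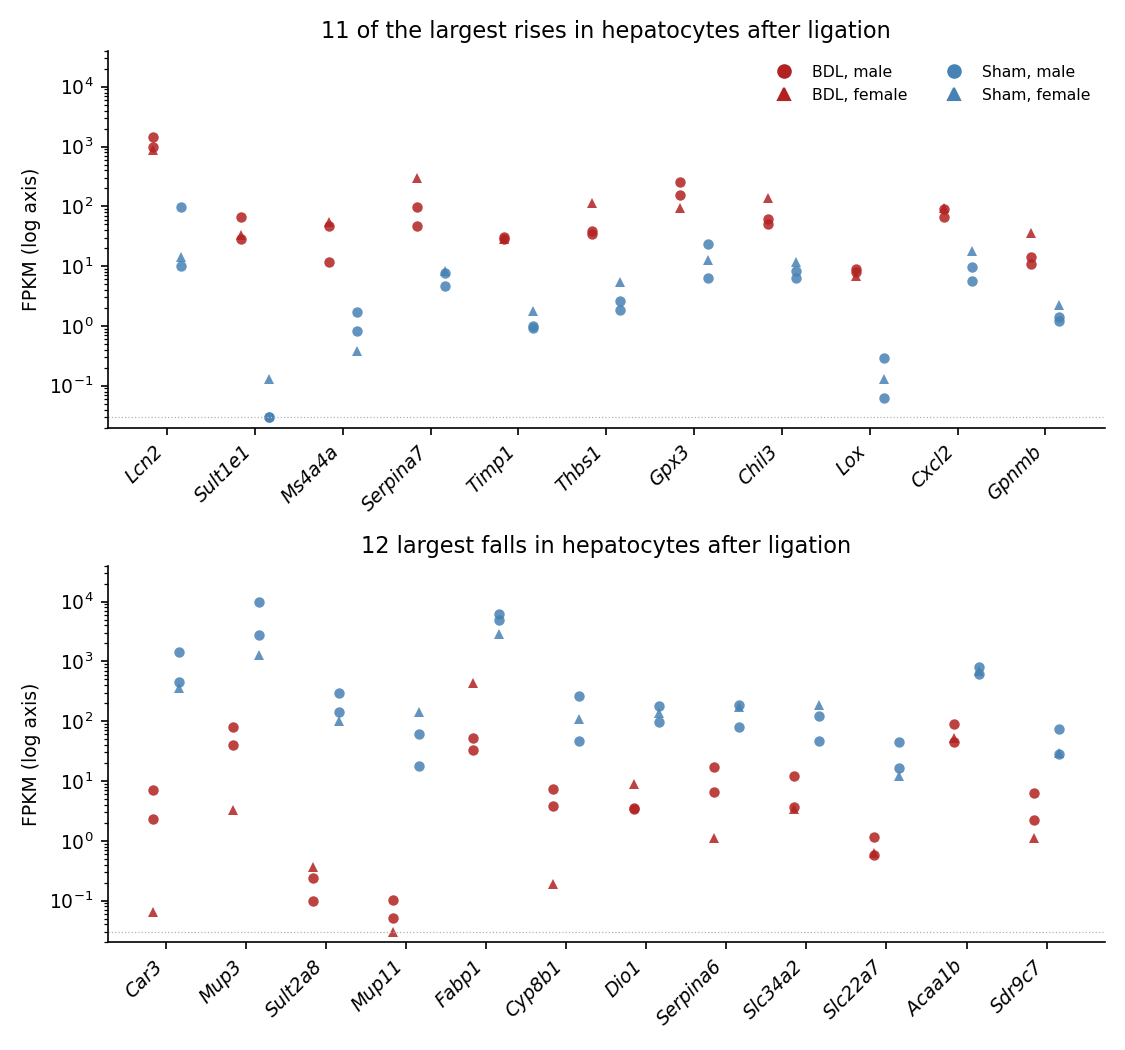
FPKM on a log axis for 11 of the 12 largest rises (top) and the 12 largest falls (bottom) among called hepatocyte genes with a mean of at least 5 FPKM in the higher group, predicted genes left out. Each point is a library, BDL in red and Sham in blue, circles male and triangles female, and libraries at 0 sit on the dotted line. The BDL points of each gene lie clear of its Sham points, from Lcn2 (log2 fold change 5.40) to Car3 (-7.64).

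The acute phase proteins, which the liver secretes in inflammation, had the highest share of non-overlapping rises among those of the 60 gene lists examined that had at least 10 tested members. Of 28 tested, 3 rose and none fell. The BDL libraries all lay above the Sham libraries for 18 members and below for none, and the median log2 fold change was 1.60. Some smaller lists had higher shares, with 5 of 7 biliary, 5 of 7 monocyte and all 4 tested mesothelial markers above without overlap. Lcn2, whose product lipocalin 2 binds bacterial siderophores, had 981, 1462 and 859 FPKM in the BDL libraries, against 95.9, 14.4 and 10.0 FPKM in the Sham libraries. Sham 1 was the highest of the Sham libraries, yet far below the lowest BDL library (log2 fold change 5.40 ± 0.79, adjusted p = 0.0358 by limma). Steap4, a metalloreductase that reduces iron and copper, had 344, 401 and 274 FPKM in the BDL libraries, against 40.9, 58.3 and 46.6 FPKM in the Sham libraries (log2 fold change 2.78 ± 0.26, adjusted p = 0.0105 by limma). The 3 libraries of each group lay close together. Cp, which encodes ceruloplasmin, a copper protein that oxidises iron, had 814, 685 and 756 FPKM in the BDL libraries, against 70.0, 116 and 229 FPKM in the Sham libraries (log2 fold change 2.60 ± 0.44, adjusted p = 0.0466 by limma). Its BDL libraries lay close together and its Sham libraries spread more.

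Serum amyloid genes varied more between libraries than between groups. Saa1 had 1164, 2429 and 289 FPKM in the BDL libraries, against 951, 37.5 and 196 FPKM in the Sham libraries. Saa2 had 694, 1994 and 194 FPKM in the BDL libraries, against 399, 13.9 and 44.5 FPKM in the Sham libraries. Both amyloid genes overlapped between groups, since Sham 1 exceeded BDL 3, and both are near-identical copies between which reads may be split. Hamp, which encodes the iron hormone hepcidin, had 3078, 3901 and 5765 FPKM in the BDL libraries, against 96.8, 1491 and 1406 FPKM in the Sham libraries (adjusted p = 0.181 with limma). The Hamp groups did not overlap, but Sham 1 lay far below the other Sham libraries. Among 32 iron and heme genes, the same Lcn2, Steap4 and Cp rose and none fell, with a median of 0.18. The zinc and iron importer Slc39a14 had 36.4, 77.2 and 127 FPKM in the BDL libraries, against 8.87, 10.5 and 20.3 FPKM in the Sham libraries (adjusted p = 0.0674 with limma) and the metal buffer Mt1 had 473, 2531 and 4034 FPKM in the BDL libraries, against 441, 88.2 and 94.9 FPKM in the Sham libraries (adjusted p = 0.107 with limma). Neither pair of groups overlapped, and neither gene was called.

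The 250 bases before the start of a gene were read from RefSeq promoters of build GRCm38.p6, which matched 8993 of the 12323 genes by symbol, and were searched on both strands for letters that acute phase and interferon factors are known to bind. The C/EBP letters TTGCNNAA were found in 12 of 22 acute phase promoters (54.5%), against 736 of all 8993 (8.18%). STAT letters TTCNNNGAA were found in 6 of the 22 (27.3%), against 5.86% of all, and AP-1 letters TGANTCA in 7 (31.8%), against 4.51%. Among all genes that rose, 10 of 57 promoters held the C/EBP letters (17.5%), and among those that fell 12 of 77 did (15.6%). Such a match is a description of the letters and does not show binding. The promoters of Lcn2 and Steap4 are shown because these genes had the largest called rises of the list. Capitals mark the C/EBP match, which starts 216 bases before the RefSeq start in Lcn2 and 87 bases before it in Steap4. The Lcn2 stretch (chr2:32387740-32387989, minus strand) lies inside the longer gene model of GENCODE M21, whose start is 513 bases from that of RefSeq, and the Steap4 stretch is chr5:7960222-7960471 on the plus strand.
Lcn2: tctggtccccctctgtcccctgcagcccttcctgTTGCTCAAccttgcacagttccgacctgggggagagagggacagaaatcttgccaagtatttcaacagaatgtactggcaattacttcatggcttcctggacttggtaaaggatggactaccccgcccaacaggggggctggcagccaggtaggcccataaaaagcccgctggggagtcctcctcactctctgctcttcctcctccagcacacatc
Steap4: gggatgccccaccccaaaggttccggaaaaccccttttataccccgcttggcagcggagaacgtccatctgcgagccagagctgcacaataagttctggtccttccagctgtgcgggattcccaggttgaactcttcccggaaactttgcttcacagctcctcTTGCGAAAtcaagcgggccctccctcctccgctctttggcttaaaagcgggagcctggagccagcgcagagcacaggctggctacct

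Interferon response genes stood lower in BDL hepatocytes. Of 37 tested, 1 fell and none rose, 36 of 37 had a negative log2 fold change, the BDL libraries all lay below the Sham libraries for 23 and above for 1, and the median was -1.21. Stat2, a transcription factor of type I interferon signalling, had 8.87, 7.51 and 7.72 FPKM in the BDL libraries, against 19.1, 17.4 and 19.7 FPKM in the Sham libraries (log2 fold change -1.13 ± 0.17, adjusted p = 0.0364 by limma). Its libraries varied little within either group. Isg15, a ubiquitin-like protein induced by interferon, was chosen after its values were seen, with 15.8, 14.2 and 2.59 FPKM in the BDL libraries, against 48, 39.2 and 28.8 FPKM in the Sham libraries (adjusted p = 0.123 with limma). The groups did not overlap, BDL 3 was by far the lowest library, and the gene was not called. BDL 3 was also the lowest of all 6 libraries for the immunoproteasome subunit Psmb9, with 6.84, 4.87 and 1.2 FPKM in the BDL libraries, against 22.8, 19.9 and 8.35 FPKM in the Sham libraries, and for the peptide transporter Tap1, with 8.58, 6.74 and 3.81 FPKM in the BDL libraries, against 23.2, 19.5 and 10.5 FPKM in the Sham libraries. Of 16 MHC class I and II genes none was called with limma (0 higher and 3 lower at an unadjusted p under 0.05, where 1746 of all 12323 genes were lower). The BDL libraries all lay below the Sham libraries for 4, a share near the 18.4% of all genes, and the median was -0.71. The chemokine Cxcl9, an interferon-gamma target chosen after its values were seen, had 3.94, 1.93 and 0.0927 FPKM in the BDL libraries, against 16.6, 28.1 and 6.72 FPKM in the Sham libraries. The Kupffer cell sums above were likewise lowest in BDL 3 and highest in Sham 1, and the part of those cells in the interferon values was not tested. With the Kupffer marker level as a term in the model, Stat2 had an adjusted p of 0.0434 with limma. The log2 fold change of Stat2 was -0.40 in biliary cells and -0.90 in Kupffer-like cells. Markers of T and NK cells, which make interferon-gamma, were lower as well. Of 10 such markers 4 were tested and the others did not reach the level needed. All 4 had a negative log2 fold change (median -0.96) and 1 fell. The BDL libraries all lay below the Sham libraries for 3, against 18.4% of all genes. The called one was Gzma, which encodes a granzyme of killer lymphocytes, with 0.317, 0.321 and 0.0926 FPKM in the BDL libraries, against 2.47, 1.81 and 1.38 FPKM in the Sham libraries (log2 fold change -1.20 ± 0.21, adjusted p = 0.0494 by limma). Gzma reached 1 FPKM in Sham libraries only, so the filter fixed its lack of overlap. The 10 markers summed to 2.85, 3.45 and 1.27 FPKM in BDL libraries, against 10.9, 12.5 and 6.11 FPKM in Sham libraries, and 1 of them was at 0 in all BDL libraries. BDL 3 was again the lowest, and the part of T and NK cells in the interferon, MHC and Cxcl9 values was not tested.

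The letters of the interferon-stimulated response element, 2 runs of GAAA with 2 bases between them on either strand, were found in 14 of 30 promoters of these genes (46.7%), against 256 of 8993 (2.85%). The promoters of Isg15 (chr4:156200819-156201068, minus strand) and Stat2 (chr10:128270248-128270497, plus strand), again the 250 bases before the RefSeq start on GRCm38.p6, show the element in a dense and a single form. In Isg15 the capitals mark 3 overlapping matches that start 78, 72 and 66 bases before the start. In Stat2 they mark 1 match on the opposite strand, 222 bases before the start.
Isg15: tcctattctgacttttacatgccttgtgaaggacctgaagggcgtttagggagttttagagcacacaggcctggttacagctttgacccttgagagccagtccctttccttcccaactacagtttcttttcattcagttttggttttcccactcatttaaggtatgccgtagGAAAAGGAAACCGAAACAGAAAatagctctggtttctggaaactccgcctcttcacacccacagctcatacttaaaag
Stat2: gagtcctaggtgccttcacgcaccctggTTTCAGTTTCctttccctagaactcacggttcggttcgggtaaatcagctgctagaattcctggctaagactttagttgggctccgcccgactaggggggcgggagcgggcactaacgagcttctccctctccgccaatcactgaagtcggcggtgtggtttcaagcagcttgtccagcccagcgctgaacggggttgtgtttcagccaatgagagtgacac

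**Figure D2:**
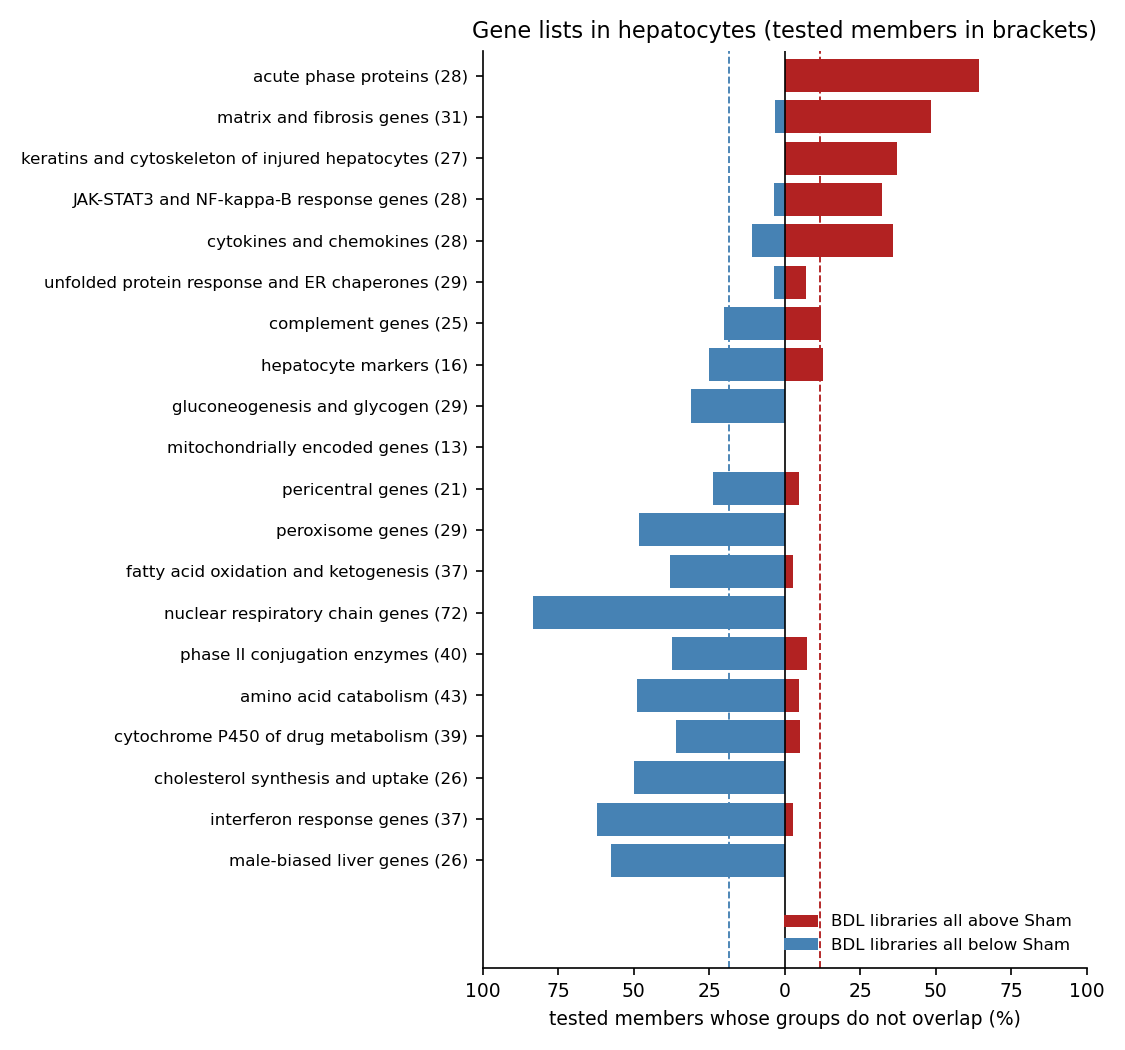
Share of tested members of 20 gene lists whose 3 BDL libraries all lay above (red, right) or all below (blue, left) the 3 Sham libraries, with lists ordered by median log2 fold change. Dashed lines give the same shares over all 12323 genes (11.8% and 18.4%). Acute phase proteins reach furthest to the right (18 of 28) and nuclear respiratory chain genes furthest to the left (60 of 72).

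Extracellular matrix genes and inhibitors of matrix breakdown were higher in BDL hepatocytes. Of 31 tested, 6 rose and none fell, and the BDL libraries all lay above the Sham libraries for 15 and below for 1, with a median of 0.92. Timp1, an inhibitor of matrix metalloproteinases, had 28.3, 30.5 and 28.9 FPKM in the BDL libraries, against 1.02, 1.78 and 0.912 FPKM in the Sham libraries (log2 fold change 3.77 ± 0.20, adjusted p = 0.000872 by limma). Its libraries were tight within each group. Lox, the enzyme that crosslinks collagen and elastin, had 8.03, 9.02 and 6.95 FPKM in the BDL libraries, against 0.0625, 0.132 and 0.289 FPKM in the Sham libraries (log2 fold change 2.95 ± 0.18, adjusted p = 0.00155 by limma). The matrix protease gene Mmp2 had 14.2, 12.8 and 13.1 FPKM in the BDL libraries, against 1.14, 2.49 and 2.03 FPKM in the Sham libraries (log2 fold change 2.35 ± 0.22, adjusted p = 0.0105 by limma). Thbs1, which encodes the matrix glycoprotein thrombospondin 1, had 35, 38.9 and 113 FPKM in the BDL libraries, against 1.88, 5.35 and 2.61 FPKM in the Sham libraries, with BDL 3 highest (log2 fold change 3.76 ± 0.50, adjusted p = 0.0278 by limma). Tnc, which encodes tenascin C and was called but chosen after its values were seen, had 1.4, 1.22 and 2.24 FPKM in the BDL libraries, against 0.00967, 0.194 and 0.149 FPKM in the Sham libraries.

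Beside these matrix values stand those of the cells that make matrix. All 12 tested stellate and fibroblast markers had a positive log2 fold change, with a median of 1.12, and the 3 BDL libraries lay above the Sham libraries for 3 of the 12. Dcn, which encodes the proteoglycan decorin, had 107, 128 and 117 FPKM in the BDL libraries, against 37.2, 77.4 and 26.3 FPKM in the Sham libraries. Lum, which encodes lumican, had 19.6, 22.6 and 10.3 FPKM in the BDL libraries, against 3.53, 9.25 and 2.41 FPKM in the Sham libraries. Sham 2 was the highest Sham library for both. The mesothelial marker Msln rose, with 11.8, 11.8 and 18.9 FPKM in the BDL libraries, against 1.35, 2.66 and 2.74 FPKM in the Sham libraries (2.22 ± 0.28, limma adjusted p = 0.0238), and all 4 tested mesothelial markers had groups that did not overlap. The part of these cells in the matrix values was not tested.

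Cytokine, chemokine and monocyte genes were among the rises. Of 28 cytokine and chemokine genes tested, 6 rose and none fell, and the BDL libraries all lay above for 10 and below for 3, with a median of 0.54. The neutrophil chemokine gene Cxcl2 had 91.4, 66.4 and 94.5 FPKM in the BDL libraries, against 9.49, 17.7 and 5.65 FPKM in the Sham libraries (log2 fold change 2.95 ± 0.39, adjusted p = 0.0278 by limma). The chemokine gene Ccl9 had 102, 129 and 124 FPKM in the BDL libraries, against 25.6, 27 and 41.3 FPKM in the Sham libraries (log2 fold change 1.91 ± 0.26, adjusted p = 0.0278 by limma). Osm, whose product oncostatin M acts on hepatocytes through gp130, had 4.59, 3.87 and 4.59 FPKM in the BDL libraries, against 1.42, 0.802 and 0.408 FPKM in the Sham libraries (log2 fold change 1.54 ± 0.24, adjusted p = 0.0372 by limma), and Ptgs2, the inducible cyclooxygenase, had 6.02, 7.32 and 17.5 FPKM in the BDL libraries, against 1.07, 1.37 and 0.531 FPKM in the Sham libraries (log2 fold change 2.39 ± 0.39, adjusted p = 0.0463 by limma). The groups stood clear of each other for all 4 genes. The remaining called members were Ccl6 and Il6, chosen after their values were seen, and Il6, the main inducer of acute phase proteins, had 16, 6.97 and 16.1 FPKM in the BDL libraries, against 0.464, 2.38 and 0.191 FPKM in the Sham libraries.

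Of 7 monocyte markers tested, 3 rose. F13a1, a coagulation factor subunit made by monocytes, had 4.08, 2.58 and 4.58 FPKM in the BDL libraries, against 0.19, 0.235 and 0.172 FPKM in the Sham libraries (log2 fold change 1.96 ± 0.22, adjusted p = 0.0179 by limma). Chil3, a chitinase-like protein of myeloid cells, had 61.9, 50.6 and 138 FPKM in the BDL libraries, against 8.2, 11.6 and 6.38 FPKM in the Sham libraries, and Ms4a4a, a membrane protein of macrophages, had 11.6, 46 and 54.1 FPKM in the BDL libraries, against 1.71, 0.379 and 0.831 FPKM in the Sham libraries. Ly6c2, the classical monocyte surface marker, which was chosen after its values were seen, had 1.86, 1.59 and 1.5 FPKM in the BDL libraries, against 3.18, 1.71 and 0.929 FPKM in the Sham libraries, with groups that overlapped. The 10 monocyte markers summed to 381.9, 469.2 and 584.1 FPKM in BDL libraries, against 194.2, 221.5 and 254.5 FPKM in Sham libraries, and the 10 neutrophil markers to 117.2, 122.8 and 302.3 FPKM in BDL libraries, against 130.6, 74.4 and 30.1 FPKM in Sham libraries. Most of the monocyte sum in each library came from members not named here. With the Kupffer marker level as a term, Cxcl2, Ccl9 and Osm had adjusted p-values of 0.0414, 0.0342 and 0.0403 with limma, while Ptgs2, at 0.0506, was no longer called. That term holds none of the listed monocyte or neutrophil markers. In biliary cells the log2 fold changes of Cxcl2, Ccl9, Osm and Ptgs2 were 2.68, 1.99, 2.46 and 2.09. In Kupffer-like cells they were 1.93, 2.16, 0.97 and 1.72. The part of Kupffer cells, monocytes and neutrophils in the cytokine values was not tested.

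Keratins and cytoskeletal genes that injured hepatocytes are known to raise gave 2 rises among 27 tested and no fall, with 10 members above the Sham libraries without overlap, none below, and a median of 0.70. Krt8 had 644, 461 and 249 FPKM in the BDL libraries, against 154, 121 and 177 FPKM in the Sham libraries. Krt18, its partner in the hepatocyte filament, had 512, 341 and 289 FPKM in the BDL libraries, against 173, 125 and 182 FPKM in the Sham libraries. Neither overlapped between groups and neither was called (adjusted p = 0.0967 and 0.0909 with limma). S100a6, a calcium-binding protein, rose, with 15.5, 22.8 and 25.5 FPKM in the BDL libraries, against 8.36, 5.1 and 5.16 FPKM in the Sham libraries (1.63 ± 0.27, limma adjusted p = 0.0465). Krt7, a keratin of bile duct cells, rose at a low level, with 1.14, 1.4 and 1.98 FPKM in the BDL libraries, against 0.16, 0.146 and 0.0985 FPKM in the Sham libraries (1.13 ± 0.20, limma adjusted p = 0.0481). Krt7 reached 1 FPKM in BDL libraries only, so the filter fixed its lack of overlap. In biliary libraries Krt8 had 1495 to 2838 FPKM, Krt18 1047 to 1794 FPKM and Krt7 19.6 to 33.7 FPKM. The part of duct cells in the keratin values was not tested. Sox9, a transcription factor of duct cells and of hepatocytes that turn on duct genes, had 4.57, 8.64 and 7.41 FPKM in the BDL libraries, against 1.8, 1.15 and 4.23 FPKM in the Sham libraries and was not called (adjusted p = 0.121 with limma), while the fetal marker Afp stayed near 1 FPKM, with 1.35, 1.22 and 1.19 FPKM in the BDL libraries, against 0.915, 1.46 and 1.68 FPKM in the Sham libraries.

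Genes of the mitochondrial respiratory chain that are encoded in the nucleus were lower together. All 72 tested had a negative log2 fold change, the BDL libraries all lay below the Sham libraries for 60 of them, against 18.4% of all genes, and the median was -0.74. The changes were small, ranging from -1.67 to -0.31 over the 71 subunits of the 5 complexes, and only Atp5k was called. Atp5k, a small subunit of ATP synthase, had 43.1, 31.6 and 31.3 FPKM in the BDL libraries, against 112, 109.7 and 119 FPKM in the Sham libraries (log2 fold change -1.67 ± 0.22, adjusted p = 0.0278 by limma). Lower values were spread over the chain. The 33 complex I genes, which oxidise NADH, summed to 1693, 1821 and 1904 FPKM in BDL libraries, against 3058, 2587 and 3375 FPKM in Sham libraries, with 28 below without overlap. The 10 complex IV genes, of cytochrome c oxidase, summed to 1485, 1679 and 1830.0 FPKM in BDL libraries, against 2983, 2409 and 3077 FPKM in Sham libraries, and all 10 lay below without overlap. All 4 complex II genes, 5 of 9 complex III genes and 13 of 15 ATP synthase genes did so too. The median log2 fold change was between -0.76 and -0.73 in each of the 5 complexes.

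The 13 subunits encoded in the mitochondrial genome gave no call with limma (0 higher and 1 lower at an unadjusted p under 0.05) and no gene without overlap, with a median of -0.53. Mitochondrial transcripts made up 3.29%, 3.29% and 4.80% of the reads in BDL libraries, against 3.47%, 5.89% and 6.02% in Sham libraries. The subunit mt-Co3 had 82.4, 61.2 and 85.2 FPKM in the BDL libraries, against 66.4, 337 and 347 FPKM in the Sham libraries, and Sham 1 lay among the BDL libraries.

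Short genes as a whole also stood lower in BDL hepatocytes. Over 8 bins of summed exon length, the median log2 fold change of protein-coding genes was -0.36 in the shortest bin (1378 genes of up to 1875 bases) and 0.18 in the longest (1378 genes of 8839 bases or more). In the shortest bin 34.8% of genes lay below the Sham libraries without overlap, and in the longest 5.44%. The respiratory chain genes were short, with a median length of 1756 bases. The 79 ribosomal protein genes, a set of like length (median 1781 bases) chosen after the data were seen, had a median log2 fold change of 0.07, and 3 of them (3.8%) lay below without overlap, against 59 of 71 respiratory chain genes with a length (83.1%). The ribosomal values are given beside the others and make no test. The part of gene length in the respiratory chain values was not tested.

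**Figure D3:**
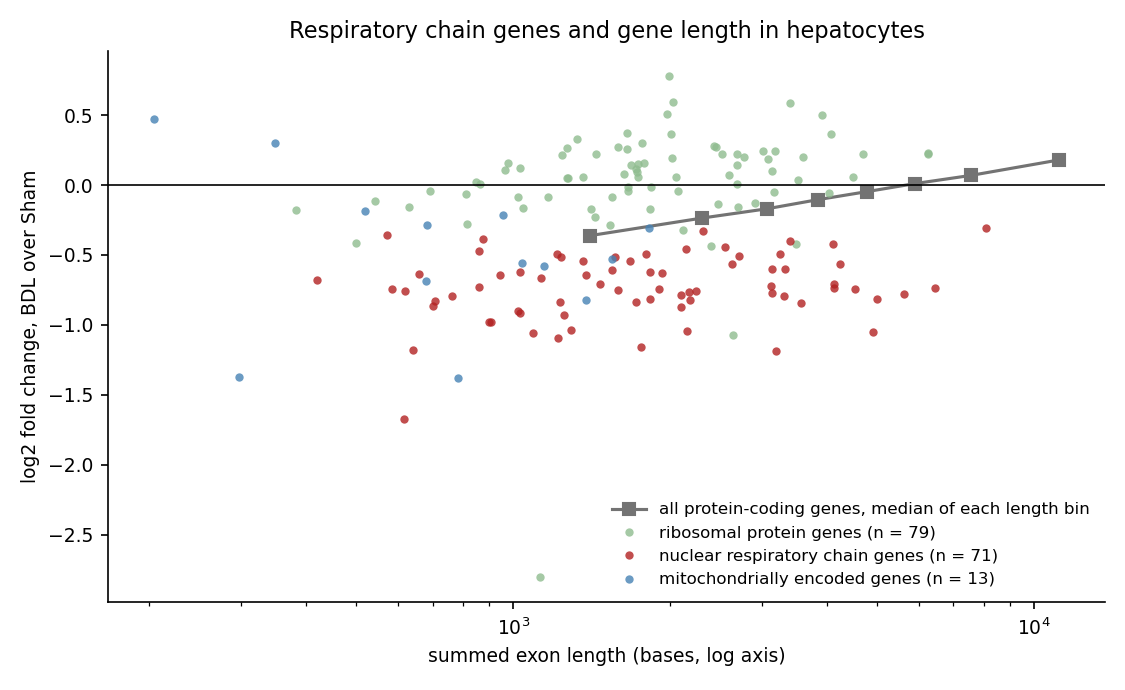
Log2 fold change (BDL over Sham) against summed exon length in bases on a log axis, for 71 nuclear respiratory chain genes (red), 13 mitochondrially encoded genes (blue) and 79 ribosomal protein genes (green), with the median of all protein-coding genes in 8 length bins (grey squares). The grey line climbs with length from -0.36 to 0.18. The red points lie below 0 at every length. The green points, a set chosen after the data were seen, scatter around 0.

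Genes that are higher in male than in female mouse liver were lower after ligation. Of 26 tested, 5 fell and none rose, all 26 had a negative log2 fold change, and the BDL libraries all lay below for 15, with a median of -3.54. The 31 genes of the list summed to 1500.0, 2233 and 2585 FPKM in BDL libraries, against 23960, 4625 and 70840.0 FPKM in Sham libraries. Sham 2, the female one, was the lowest of the Sham libraries. Sult2a8, a sulfotransferase of bile acids in mouse liver, had 0.243, 0.0982 and 0.369 FPKM in the BDL libraries, against 141, 100.4 and 297 FPKM in the Sham libraries (log2 fold change -7.04 ± 0.39, adjusted p = 0.00117 by limma). Its Sham level was high in both sexes. Mup11, a major urinary protein gene, had 0.0505, 0.102 and 0 FPKM in the BDL libraries, against 18, 143 and 61 FPKM in the Sham libraries, but this family has near-identical copies between which reads may be split (log2 fold change -5.72 ± 0.66, adjusted p = 0.0221 by limma). Slc22a7, an organic anion transporter, had 1.18, 0.576 and 0.621 FPKM in the BDL libraries, against 16.8, 12.2 and 45.2 FPKM in the Sham libraries (log2 fold change -3.64 ± 0.46, adjusted p = 0.0249 by limma), and Nudt7, a peroxisomal coenzyme A hydrolase, had 10.9, 7.84 and 8.24 FPKM in the BDL libraries, against 102, 57.8 and 207 FPKM in the Sham libraries (log2 fold change -3.44 ± 0.45, adjusted p = 0.0278 by limma).

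The distance between the sexes was read within each group, with 2 male libraries and 1 female, which allows no test. Both male libraries lay above the female one for 18 of the 26 male-biased genes in BDL hepatocytes and for 24 of 26 in Sham hepatocytes. The median male minus female difference was 0.60 in BDL and 1.97 in Sham hepatocytes on the log2 scale. Both male BDL libraries lay below both male Sham libraries for 22 of 26, and the female BDL library lay below the female Sham library for 25 of 26. These counts were not made over all genes, and the female one sets 1 library beside 1. The list's median log2 fold change was -3.89 among males and -1.47 among females.

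Female-biased genes were mixed. Of 21 tested, 1 rose and 1 fell, with a median of 0.44 that was -0.18 without BDL 3, the female BDL library, and 0.04 in the male libraries. Both males lay below the female for 9 of 21 in BDL hepatocytes, against 19 of 21 in Sham hepatocytes, and the median male minus female difference was -0.16 in BDL and -1.56 in Sham hepatocytes. Over all 12323 genes both males lay above the female for 5180 in BDL and 3587 in Sham hepatocytes, and below it for 4758 in BDL and 2716 in Sham hepatocytes. Sult1e1, the estrogen sulfotransferase, rose, with 28.6, 66.9 and 33.5 FPKM in the BDL libraries, against 0, 0.128 and 0 FPKM in the Sham libraries (log2 fold change 5.30 ± 0.32, adjusted p = 0.00155 by limma). It was at or near 0 in Sham libraries of both sexes and present in all BDL libraries. Lifr, the receptor of leukemia inhibitory factor, fell, with 16.3, 18.2 and 9.68 FPKM in the BDL libraries, against 65.6, 77.7 and 139 FPKM in the Sham libraries (log2 fold change -2.57 ± 0.36, adjusted p = 0.0313 by limma).

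**Figure D4:**
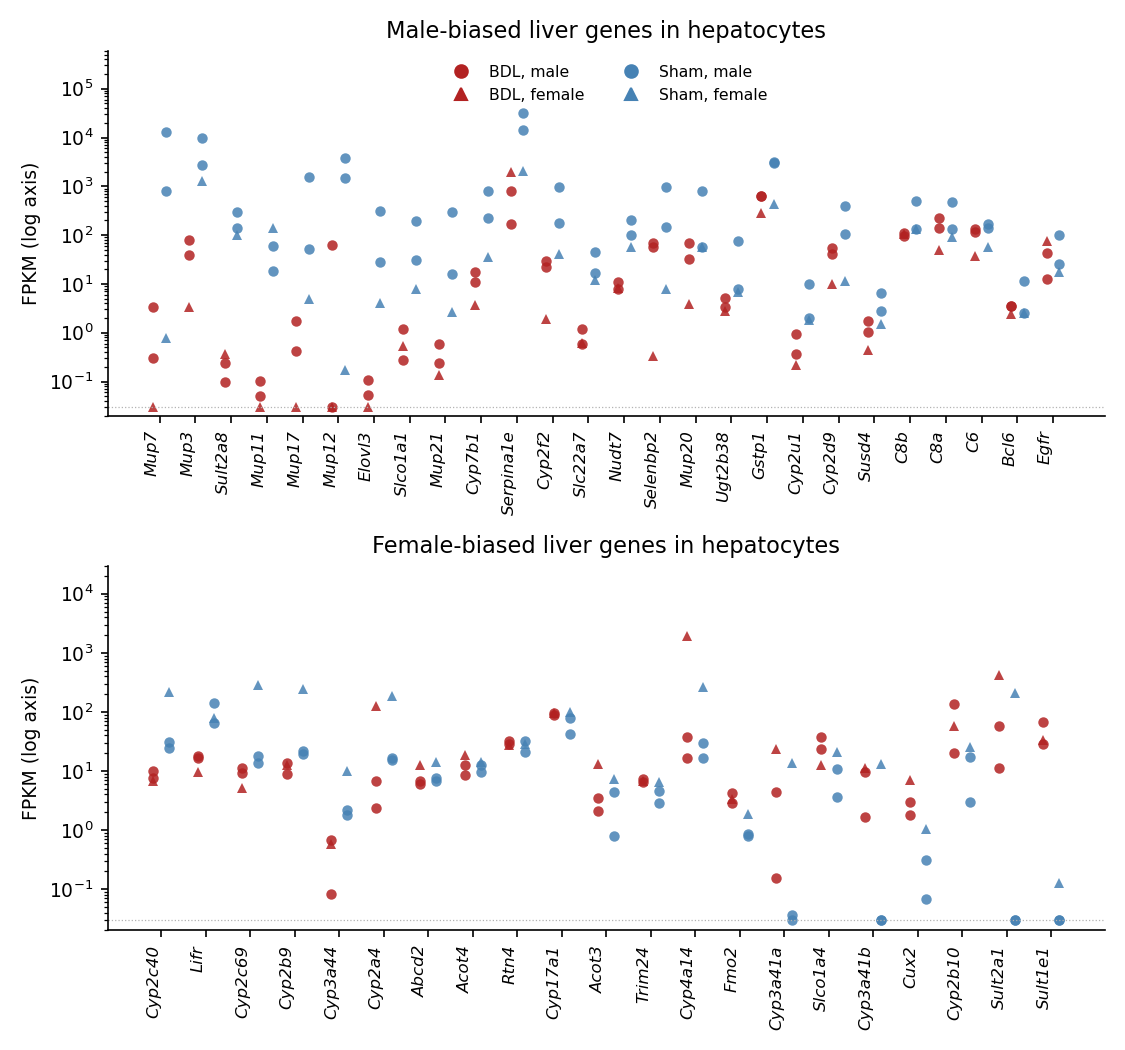
FPKM on a log axis for 26 male-biased (top) and 21 female-biased (bottom) liver genes, ordered by log2 fold change. Points are libraries, BDL in red left of Sham in blue, circles male and triangles female, and libraries at 0 sit on the dotted line. In the top panel the blue circles stand above the blue triangle for 24 of 26 genes and the red points mostly lie below both.

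Of 17 growth hormone signalling genes tested, 1 fell and none rose, with a median of -0.36. Stat5a, a transcription factor of the pathway, had 4, 2 and 1.95 FPKM in the BDL libraries, against 10.2, 13.3 and 11.2 FPKM in the Sham libraries (log2 fold change -1.82 ± 0.25, adjusted p = 0.0309 by limma). The growth hormone receptor gene Ghr had 27.6, 23.2 and 11.6 FPKM in the BDL libraries, against 33.9, 60.0 and 103 FPKM in the Sham libraries, with groups that did not overlap and an adjusted p of 0.129 with limma. Its target Igf1, the circulating growth factor, had 57.8, 64.6 and 76 FPKM in the BDL libraries, against 69.8, 91.4 and 128 FPKM in the Sham libraries, with groups that overlapped.

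Thyroid hormone genes changed in both directions. Of 11 tested, 1 rose and 2 fell. Dio1, the deiodinase that converts thyroxine to the active hormone, had 3.4, 3.48 and 8.8 FPKM in the BDL libraries, against 98.2, 137 and 177 FPKM in the Sham libraries (log2 fold change -4.54 ± 0.38, adjusted p = 0.00801 by limma). The groups stood far apart, with BDL 3 the highest BDL library. Thrsp, a lipogenic gene known as a thyroid hormone target, had 20.8, 34.1 and 9.11 FPKM in the BDL libraries, against 131, 145 and 300.1 FPKM in the Sham libraries (log2 fold change -3.18 ± 0.52, adjusted p = 0.0466 by limma). Serpina7, which encodes the thyroxine-binding globulin of plasma, had 47, 98.2 and 303 FPKM in the BDL libraries, against 4.58, 8.31 and 7.71 FPKM in the Sham libraries (log2 fold change 3.88 ± 0.64, adjusted p = 0.0466 by limma). BDL 3 was its highest library. Ttr, another carrier of thyroxine, had 2264, 2388 and 2370.2 FPKM in the BDL libraries, against 4280.1, 6353 and 8037 FPKM in the Sham libraries, which did not overlap and was not called (adjusted p = 0.0875 with limma). Serpina6, which carries glucocorticoids in plasma, fell, with 16.8, 6.5 and 1.11 FPKM in the BDL libraries, against 81.1, 172 and 190.3 FPKM in the Sham libraries (log2 fold change -4.41 ± 0.76, adjusted p = 0.0489 by limma).

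Carbonic anhydrases, which interconvert carbon dioxide and bicarbonate, gave 2 falls among 7 tested and 5 members below without overlap. Car3, an abundant cytosolic form, had 7.15, 2.31 and 0.065 FPKM in the BDL libraries, against 448, 358 and 1410.1 FPKM in the Sham libraries (log2 fold change -7.64 ± 0.82, adjusted p = 0.0174 by limma). The libraries spread widely within BDL, with BDL 3 lowest. Car1 had 0.383, 0.129 and 0 FPKM in the BDL libraries, against 5.36, 3.24 and 8.81 FPKM in the Sham libraries (log2 fold change -2.47 ± 0.33, adjusted p = 0.0278 by limma).

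Enzymes that break down amino acids were mostly lower. Of 43 tested, 2 fell and none rose, 36 had a negative log2 fold change, and the BDL libraries all lay below for 21 and above for 2, with a median of -0.78. Both called enzymes act on sulfur amino acids. Cbs, which condenses homocysteine with serine, had 157, 112 and 157 FPKM in the BDL libraries, against 392, 365 and 454 FPKM in the Sham libraries (log2 fold change -1.51 ± 0.26, adjusted p = 0.0467 by limma), and Csad, which makes the taurine precursor hypotaurine, had 84.2, 69.1 and 72.6 FPKM in the BDL libraries, against 166, 199 and 197 FPKM in the Sham libraries (log2 fold change -1.30 ± 0.22, adjusted p = 0.0466 by limma). Each group was tight for both. Mat1a, the liver enzyme that makes S-adenosylmethionine, was chosen after its values were seen as the member highest in BDL, with 1329, 2733 and 3533 FPKM in the BDL libraries, against 738, 859 and 855 FPKM in the Sham libraries (adjusted p = 0.0998 with limma, not called). Of 17 urea cycle and nitrogen genes none was called with limma (1 higher and 4 lower at an unadjusted p under 0.05), and Ass1, the argininosuccinate synthase, had 1043, 1167 and 845 FPKM in the BDL libraries, against 1633, 1728 and 2516 FPKM in the Sham libraries without overlap. Of 29 genes of gluconeogenesis and glycogen none was called with limma (0 higher and 9 lower at an unadjusted p under 0.05), and 9 lay below without overlap. G6pc, which releases glucose from the liver, had 139.6, 152 and 122 FPKM in the BDL libraries, against 209, 288 and 716 FPKM in the Sham libraries, also without overlap, while Pck1, an early step of gluconeogenesis, overlapped, with 962, 998 and 962 FPKM in the BDL libraries, against 1400.4, 901 and 1909 FPKM in the Sham libraries.

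Enzymes of fatty acid oxidation and ketone body formation gave 3 falls among 37 tested and 14 members below without overlap, with a median of -0.70. Bdh1, the enzyme that makes 3-hydroxybutyrate, had 10.2, 6.53 and 8.65 FPKM in the BDL libraries, against 63.8, 73.5 and 74.8 FPKM in the Sham libraries (log2 fold change -2.94 ± 0.22, adjusted p = 0.00335 by limma). Acaa1b, a peroxisomal thiolase, had 89, 44.9 and 52.1 FPKM in the BDL libraries, against 626, 684 and 815 FPKM in the Sham libraries (log2 fold change -3.55 ± 0.32, adjusted p = 0.00885 by limma). Both were tight within groups. Fabp1, the liver fatty acid binding protein, had 33.1, 52.2 and 435 FPKM in the BDL libraries, against 4963, 2841 and 6181 FPKM in the Sham libraries, with BDL 3 the highest BDL library (log2 fold change -5.58 ± 0.93, adjusted p = 0.0466 by limma). Ppara, the receptor that drives this programme, had 7.04, 9.78 and 11.5 FPKM in the BDL libraries, against 13.9, 19 and 30.6 FPKM in the Sham libraries (adjusted p = 0.13 with limma), and Cpt1a, the gate of mitochondrial entry, had 49.6, 102 and 288 FPKM in the BDL libraries, against 73.6, 85.3 and 101 FPKM in the Sham libraries. The Ppara groups did not overlap, those of Cpt1a did, and neither was called. Of 28 lipogenesis and triglyceride genes 1 fell, the Thrsp given above.

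All 26 tested genes of cholesterol synthesis and uptake had a negative log2 fold change, 2 fell, and 13 lay below without overlap, with a median of -0.99. Tm7sf2, a sterol reductase, had 9.22, 11.4 and 5.41 FPKM in the BDL libraries, against 39.9, 35.3 and 60.1 FPKM in the Sham libraries (log2 fold change -2.27 ± 0.32, adjusted p = 0.0313 by limma). Pmvk, the phosphomevalonate kinase, had 18.9, 9.7 and 13.4 FPKM in the BDL libraries, against 67.5, 38.3 and 55.5 FPKM in the Sham libraries (log2 fold change -1.88 ± 0.31, adjusted p = 0.0466 by limma). The groups did not overlap for either gene.

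Bile acid genes differed by role. Among 14 synthesis and conjugation genes 1 fell, the sterol 12-alpha-hydroxylase Cyp8b1, with 7.48, 3.85 and 0.191 FPKM in the BDL libraries, against 45.9, 111 and 265 FPKM in the Sham libraries (log2 fold change -4.93 ± 0.86, adjusted p = 0.0494 by limma). Cyp7a1, which catalyses the first step, had 63.8, 7.28 and 0 FPKM in the BDL libraries, against 3.91, 35.8 and 21.8 FPKM in the Sham libraries, and its libraries spread so widely within BDL that no direction could be read. Nr0b2, which encodes the repressor SHP, had 25.8, 15.5 and 2.8 FPKM in the BDL libraries, against 64.8, 69.2 and 129 FPKM in the Sham libraries, without overlap (adjusted p = 0.0892 with limma). Its activator Nr1h4, which encodes FXR, had 46.8, 60.2 and 68.9 FPKM in the BDL libraries, against 61.1, 42.1 and 69.9 FPKM in the Sham libraries, and the groups overlapped.

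Of 9 uptake genes 2 fell, among them the Slc22a7 given above. Slc10a1, the sodium-dependent bile acid importer NTCP, had 127, 143 and 188 FPKM in the BDL libraries, against 114, 231 and 365 FPKM in the Sham libraries, with groups that overlapped. Of 12 export genes 1 fell. Abcg8, which with Abcg5 exports sterols into bile, had 6.76, 5.92 and 5.05 FPKM in the BDL libraries, against 13.5, 18.6 and 19.8 FPKM in the Sham libraries (log2 fold change -1.40 ± 0.21, adjusted p = 0.0368 by limma). The canalicular bile acid pump Abcb11 had 147, 49.1 and 25.8 FPKM in the BDL libraries, against 59.8, 133 and 229 FPKM in the Sham libraries, overlapping, and the basolateral pump Abcc3 had 133, 104 and 84.4 FPKM in the BDL libraries, against 59.7, 81.2 and 70.4 FPKM in the Sham libraries, without overlap and not called (adjusted p = 0.242 with limma). The standard error of the log2 fold change was 0.72 for Abcb11 and 0.44 for Slc10a1, so changes of that size could not be detected with these libraries.

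Of 40 conjugating enzymes 1 rose, the Sult1e1 given above, and 3 fell. Sult5a1, a sulfotransferase, had 0.739, 0.73 and 0.822 FPKM in the BDL libraries, against 17.9, 16 and 18.4 FPKM in the Sham libraries (log2 fold change -3.38 ± 0.16, adjusted p = 0.000793 by limma). Gstt1, a glutathione transferase, had 73.2, 76.4 and 76.4 FPKM in the BDL libraries, against 236, 327 and 304 FPKM in the Sham libraries (log2 fold change -1.91 ± 0.23, adjusted p = 0.0233 by limma). Both were tight within each group. Of 39 cytochromes P450 of drug metabolism none was called with limma (3 higher and 12 lower at an unadjusted p under 0.05), while 14 lay below without overlap and 2 above. Over all 12323 genes, 1045 were higher and 1746 lower at that unadjusted p. Cyp2e1, which oxidises ethanol, had 256, 534 and 612 FPKM in the BDL libraries, against 705, 1441 and 1129 FPKM in the Sham libraries, without overlap, and Cyp3a11 had 819.6, 848 and 401 FPKM in the BDL libraries, against 309.9, 716 and 877 FPKM in the Sham libraries, with overlap. Of 21 NRF2 and glutathione genes, Gpx3, the plasma glutathione peroxidase, rose, with 253, 152 and 95.3 FPKM in the BDL libraries, against 23.7, 12.8 and 6.45 FPKM in the Sham libraries (log2 fold change 3.51 ± 0.52, adjusted p = 0.0365 by limma). Osgin1, an oxidative stress-induced growth inhibitor, fell, with 33.4, 47.2 and 46.7 FPKM in the BDL libraries, against 235, 109 and 189 FPKM in the Sham libraries (log2 fold change -1.99 ± 0.34, adjusted p = 0.0466 by limma). Nqo1, a quinone reductase that NRF2 is known to raise, had 9.13, 8.41 and 8.16 FPKM in the BDL libraries, against 3.39, 6.63 and 4.25 FPKM in the Sham libraries and was not called.

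Stress and cell cycle genes gave few calls. Of 20 immediate early genes, Fosl2, an AP-1 subunit, rose, with 17, 17.9 and 28.7 FPKM in the BDL libraries, against 4.43, 7.22 and 3.37 FPKM in the Sham libraries (log2 fold change 1.90 ± 0.31, adjusted p = 0.0463 by limma). Of 16 circadian clock genes, Per1, a clock repressor, rose, with 15.2, 25.2 and 22.9 FPKM in the BDL libraries, against 4.59, 6.38 and 3.41 FPKM in the Sham libraries (log2 fold change 1.93 ± 0.28, adjusted p = 0.0313 by limma), and the hour at which cells were taken is not given. Of 29 genes of the unfolded protein response none was called with limma (2 higher and 1 lower at an unadjusted p under 0.05), and 2 lay above and 1 below without overlap, which are shares under those of all genes (11.8% and 18.4%). Of the 29, 25 had a positive log2 fold change, against 5568 of all 12323 genes, and their median was 0.39. All 21 tested cell cycle genes had a negative log2 fold change, 8 lay below without overlap and none was called with limma (0 higher and 10 lower at an unadjusted p under 0.05). Ccnd1, the cyclin D1 gene, had 17.7, 10.5 and 6.04 FPKM in the BDL libraries, against 19.2, 38.1 and 12.9 FPKM in the Sham libraries, with overlap. Cdkn1a, which encodes the cell cycle inhibitor p21, had 36.9, 55.9 and 82.1 FPKM in the BDL libraries, against 34.2, 26.4 and 31 FPKM in the Sham libraries, without overlap (adjusted p = 0.18 with limma).

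Whether the response of hepatocytes differed from that of the other cells was tested as an interaction over 12 libraries. Against biliary epithelial cells 237 of 14780 genes (1.6%) differed, 131 with a higher and 106 with a lower response in hepatocytes. A gene that the other cells barely express can differ here through its change in hepatocytes alone. Restricted, after the data were seen, to the 11349 genes with at least 1 FPKM in 3 or more libraries of each cell type, 105 differed (0.925%), 68 higher and 37 lower in hepatocytes. Sult1e1 and Sult5a1 were left out by that restriction, with at most 0.176 and 1.18 FPKM in biliary libraries, so their differences restate the change in hepatocytes.

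Eppk1, a cytoskeletal linker of epithelia, reached 1 FPKM in all biliary libraries but in hepatocytes only in the BDL libraries. It had a higher response in hepatocytes (difference in log2 fold change 3.48 ± 0.33, limma adjusted p = 0.0018). Eppk1 had 5.09, 6.45 and 5.34 FPKM in the BDL libraries, against 0.219, 0.263 and 0.563 FPKM in the Sham libraries, and its own log2 fold change was 2.30 in hepatocytes and -1.18 in biliary cells. Steap4 also differed (2.64 ± 0.31, limma adjusted p = 0.00464), with 2.78 in hepatocytes and 0.14 in biliary cells, whereas for Lcn2 and Timp1 no difference was called (3.39 ± 0.92, limma adjusted p = 0.0902, and 0.81 ± 0.57, limma adjusted p = 0.499). Among falls, Bdh1 had a lower response in hepatocytes (-3.21 ± 0.53, limma adjusted p = 0.0193), where its own log2 fold change was -2.94, against 0.27 in biliary cells. Eppk1, Steap4 and Bdh1 also differed under the restriction to genes of both cell types, with adjusted p-values of 0.00197, 0.00542 and 0.0218 with limma. Eppk1 met that restriction in hepatocytes through the BDL libraries alone, where it was high. The BDL hepatocyte libraries have the lowest title numbers and the BDL biliary libraries do not, so what the number marks and cell type cannot be told apart in these differences.

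Against Kupffer-like cells 57 of 14101 genes (0.404%) differed, 6 with a higher and 51 with a lower response in hepatocytes. Of 11216 genes that passed the level in both cell types, 3 differed, which were Msrb1, Uck1 and Hyi, all with a lower response in hepatocytes and chosen after their values were seen. Dio1, Slc22a7, Sult5a1 and Eppk1 were among the 57 but not among those 11216, with at most 2.02, 0.407, 0.708 and 0.256 FPKM in Kupffer-like libraries, so their differences too restate the change in hepatocytes. Atp5k, the respiratory chain gene that fell, was expressed in all 3 cell types and had a lower response in hepatocytes than in biliary cells (-1.57 ± 0.30, limma adjusted p = 0.0338) and than in Kupffer-like cells (-2.03 ± 0.30, limma adjusted p = 0.0298). Under the restriction those adjusted p-values were 0.0408 and 0.0504 with limma. For Lox and Ms4a4a the difference from Kupffer-like cells was small beside its error (0.09 ± 0.57, limma adjusted p = 0.955, and 0.10 ± 0.84, limma adjusted p = 0.97). Hepatocyte and Kupffer-like libraries share 3 title numbers, each pair with the same treatment and sex, and they were fitted as independent. With the number as a block (correlation 0.368), 469 genes differed.

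Of the 194 called genes, 132 passed the level needed for a test without each of the 6 libraries in turn, and 4 of these were called in all 6 fits. Among them were Timp1, Bdh1 and the processed pseudogene Gm10036, with highest adjusted p-values of 0.0194, 0.0404 and 0.0102 with limma. Timp1 and Bdh1 lie at chrX:20870166-20874735 and chr16:31422280-31458901 on GRCm38 in GENCODE M21. Mmp2 and Dio1 were called in 5 of the 6 fits. The other 62 called genes, which reach 1 FPKM in 1 group only, could be tested in 3 of the 6 fits, and 8 of them were called in all 3, among them Sult1e1, Sult2a8, Sult5a1, Lox and Eppk1. Those 3 fits each leave out a library of the group where the gene is low. Dependence on a single library of the group where it is high was not examined.

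Some called genes followed the number in the library title across cell types. The labels do not say what that number marks, and the grouping was chosen after the values were seen. The 5 libraries with the lowest title numbers, which are the 3 BDL hepatocyte libraries and Kupffer-like BDL 1 and 2, lay above the other 13 libraries for 50 of the 12323 genes and below them for 33. Among these were 6 called rises (Sult1e1, Ccl9, Gm10036, Gm4864, Gm5900 and Nudc-ps1) and 5 called falls, with Hmgn2, Cep85 and Hdac1. All of these rises but Sult1e1 and Ccl9 are annotated as processed pseudogenes. Gm10036 had 101, 99.7 and 107 FPKM in BDL hepatocytes, against 3.78, 4.28 and 4.53 FPKM in Sham hepatocytes. It had 176 and 155 FPKM in Kupffer-like BDL 1 and 2, against 4.57 FPKM in Kupffer-like BDL 3, and 2.95 to 6.72 FPKM over all 13 other libraries. The chromatin protein gene Hmgn2 had 0.599, 0.659 and 2.04 FPKM in BDL hepatocytes, against 9.14, 8.02 and 4.46 FPKM in Sham hepatocytes, and 17.4 FPKM in Kupffer-like BDL 3. Of the 8 genes on chromosome 4 that were lower in these 5 libraries, 5 lay between 129.5 and 134.5 Mb (Hdac1, Sytl1, Hmgn2, Cep85 and Stmn1), where 73 genes were tested. In hepatocytes low numbers and ligation coincide, so for these genes what the number marks and ligation cannot be told apart.

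**Figure D5:**
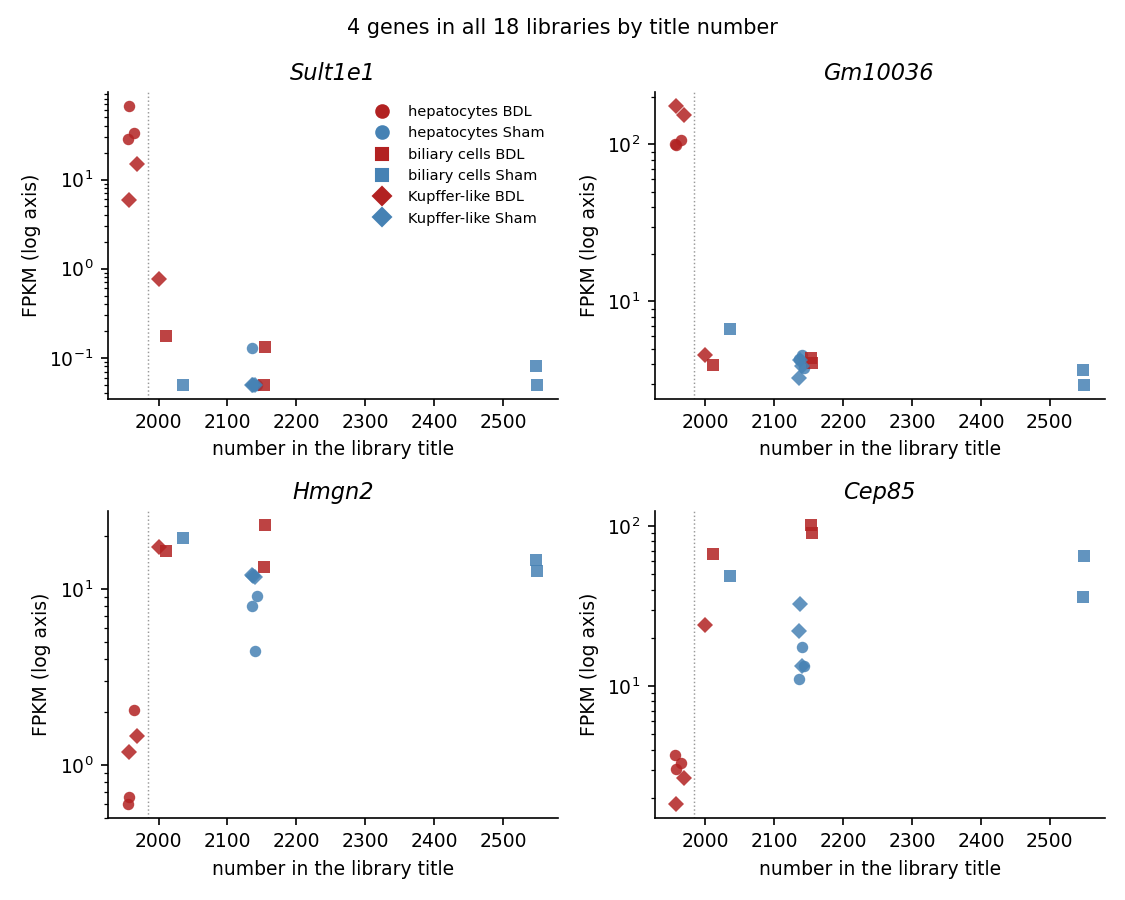
FPKM on log axes of Sult1e1, Gm10036, Hmgn2 and Cep85 in all 18 libraries against the number in the library title. Circles are hepatocytes, squares biliary cells and diamonds Kupffer-like cells, BDL in red and Sham in blue, values under 0.05 FPKM are drawn at 0.05, and the dotted line separates the 5 lowest numbers from the rest. The 5 libraries left of the line stand above the rest for Sult1e1 and Gm10036 and below it for Hmgn2 and Cep85, and the red points to the right stand among the blue ones for Gm10036.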

How the data were processed

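Polyadenylated RNA of isolated liver cells was sequenced, with a VAHTS Universal V6 library kit per the labels' protocols. The submitters' processing notes name CASAVA 1.8, fastp, HISAT2 2.0.5, featureCounts 1.5.0-p3, DESeq2 1.20.0 and build GRCm38 (mm10). Not given in the sources used here are strandedness and the annotation release. The authors deposited FPKM values of 54532 genes in 18 columns, and no count table was used. Reads per gene were recovered from those FPKM values and GENCODE M21 exon lengths. Of 53710 genes, 98.8% came out whole in all libraries within 0.02 of a read. Implied library size over reads was 0.516 to 0.741 in hepatocytes and 0.934 to 1.22 in the other cells.

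Genes that reached 1 FPKM in 3 or more libraries of a comparison were tested as log2(FPKM + 1) with limma 3.58.1 (lmFit, eBayes with trend and robust, statmod 1.5.0, R 4.3.3), 2-sided, at a Benjamini-Hochberg adjusted p under 0.05. The hepatocyte test used its 6 libraries, and each difference between cell types 12. Gene lists were counted, not tested. The pipeline was tested on simulated data.

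The groups, the gene lists and the tests were chosen with earlier results of these data known. The text names the 12 largest called rises and falls with a mean of at least 5 FPKM, predicted genes left out, 39 genes of known function, as many as 4 called members of each list (with none called, the 2 of smallest p), and 4 genes per direction of each difference. Other genes are said to be chosen after their values were seen. Other settings were a pseudocount of 0.1, other filters, scalings and covariates, voom on recovered reads, all 18 libraries in 1 model, and leaving out each library. The fits on male libraries, on genes expressed in both cell types and with title number as a block (duplicateCorrelation) were added after the data were seen. Hepatic stellate cells were not analysed here, and a few genes that the rule names are not reported here.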

Additional observations from a re-analysis of the deposited data

Results flagged for a closer look

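The response to ligation differed from that of biliary epithelial cells, by an interaction in limma over 12 libraries, for Sult1e1 (difference in log2 fold change 5.20), Serpina7 (4.16), Eppk1 (3.48) and the TWEAK receptor gene Tnfrsf12a (3.28), all higher in hepatocytes. It was lower in hepatocytes for Sult2a8 (-4.86), Slc22a7 (-3.46), Sult5a1 (-3.33) and Bdh1 (-3.21). Against Kupffer-like cells the response was lower in hepatocytes for Mup11 (-5.54), Dio1 (-3.95), Slc22a7 (-3.64) and Sult5a1 (-3.02), and higher for Ccdc120 (2.24), Eppk1 (2.15) and Syt12 (2.09). In biliary cells Sult1e1, Slc22a7 and Sult5a1, and in Kupffer-like cells all 7 genes given, did not reach 1 FPKM in 3 libraries, so that these differences restate the change in hepatocytes. Sult2a8 did not reach that level in biliary cells either, but had up to 15.0 FPKM there. Its difference (-4.86) was smaller in size than its change in hepatocytes (-7.04). With the level required in both cell types, Serpina7 had an adjusted p of 0.0546 with limma. Groups of 3 libraries were not examined for a single distant library.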

How the results depend on the processing

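Counts of calls moved with the settings. Rises (88) and falls (106) in hepatocytes became 54 and 63 with a pseudocount of 0.1, 11 and 7 with no filter on level, 46 and 43 when scaled to total recovered reads, 55 and 41 with voom on recovered reads, 724 and 1430 with all 18 libraries in 1 model, and 2 and 1 in the male libraries. Rises became 52 with FPKM of at least 5, and falls 39 when libraries were scaled to a common sum, where rises numbered 70 and the median log2 fold change of all genes moved from -0.06 to 0.09. Leaving out 1 library gave 3 to 28 rises and 4 to 49 falls, lowest for rises without BDL 2 and for falls without Sham 2. The 237 differences from biliary cells became 112 with a pseudocount of 0.1, 86 with no filter, 122 with FPKM of at least 5, 105 with the level required in both cell types (chosen after seeing the data) and 414 with all 18 libraries, and ranged from 51 to 338 without 1 library. The 57 differences from Kupffer-like cells became 11 with a pseudocount of 0.1, 24 with no filter, 11 with a common sum, 89 without trend and robust, 3 with the level required in both cell types, 469 with title number as a replicate block (both chosen after seeing the data) and 716 with all 18 libraries, and ranged from 2 to 382 without 1 library, highest without Kupffer-like BDL 3. The smaller fits have fewer samples, and the fit without a filter tests 26526 genes. The cause was not tested for the other moves. Over all settings the list medians ran from 1.19 to 1.81 for acute phase proteins, -0.86 to -0.56 for respiratory chain genes, -1.43 to -0.89 for interferon response genes and -3.88 to -1.23 for male-biased genes. Medians of 17 of 59 lists changed sign under some setting, among them those of endothelial (-1.24 to 0.23), Kupffer cell (-0.83 to 0.22) and hepatocyte markers (-0.41 to 0.31) and of female-biased genes (-0.18 to 0.78). No paired analysis was possible of BDL with Sham hepatocytes because their libraries share no title number, and the numbers 1 to 3 follow accession order. With 3 libraries per group, 2791 genes had an unadjusted p under 0.05 and 194 an adjusted one, so that many of the smaller differences given above are not detectable at this size.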

Other observations

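The predicted gene Gm21320, chosen after its values were seen, was listed at 0 in all BDL hepatocyte libraries, against 992, 695 and 2981 FPKM in Sham libraries (limma adjusted p = 0.000872). No position was matched to its symbol.

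BDL 3 stood apart from all other hepatocyte libraries for some metabolic genes, of which Pdk4, Cyp4a14 and Igfbp1 were chosen after their values were seen and no list was counted. Pdk4, which turns off glucose oxidation, had 4.13, 18.6 and 473 FPKM in the BDL libraries, against 14.4, 17.4 and 10.1 FPKM in the Sham libraries. Cyp4a14, a fatty acid hydroxylase, had 16.8, 37 and 1909 FPKM in the BDL libraries, against 16.9, 267 and 29.2 FPKM in the Sham libraries. Fgf21, a fasting hormone, had 3.69, 2.71 and 49.8 FPKM in the BDL libraries, against 2.13, 1.17 and 2.68 FPKM in the Sham libraries. Igfbp1, which binds insulin-like growth factors, had 464, 908 and 7193 FPKM in the BDL libraries, against 492, 592 and 771 FPKM in the Sham libraries. In each case BDL 3 exceeded all 5 other libraries and none of the 4 genes was called. The fatty acid and ketone genes Acaa1b and Bdh1 did not share this, and lay in BDL 3 between both other BDL libraries. BDL 3 is also the only female BDL library, and sex and this library cannot be told apart within BDL.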
